A study of Mus musculus with 24 samples.

Results

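The effect of the CD1dKOxE7 donor label on grafted skin, and how it differed between 28 and 14 days post-grafting (dpg), was measured in 12 of the 24 RNA sequencing libraries of the series. The 12 were taken by donor label and day: 3 libraries each of CD1dKOxE7 grafts at 28 dpg, E7 grafts at 28 dpg, CD1dKOxE7 grafts at 14 dpg and E7 grafts at 14 dpg. In every group ear skin had been placed on C57BL/6 recipients. E7 donors carried the K14E7 transgene, in which the keratin 14 promoter drives the E7 oncoprotein of human papillomavirus 16 in basal keratinocytes. CD1dKOxE7 donors carried the same transgene together with a CD1d knockout, so both donors shared E7 and differed in CD1d. The recipients were not labelled as knockouts, so recipient cells that enter a graft can carry CD1d. Grafts of C57BL/6 donors (C57), 3 per day, were used for levels alone. The sources give neither the age of graft donors nor the removed part of Cd1d1, and do not state that each library came from a separate mouse. The p-values therefore measure the spread between libraries, which may be partly technical.

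CD1d is an MHC class I-like protein that displays lipid antigens, and the cells that recognise them are natural killer T (NKT) cells, lymphocytes that share receptors with NK cells and T cells. The E7 protein inactivates the retinoblastoma protein and so keeps keratinocytes in the cell cycle, and E7-expressing skin is a model of skin grafts that are tolerated although they carry a foreign antigen. Rejection of such a graft involves T cells that recognise peptides on MHC molecules and kill with granzymes and perforin.

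The quantity reported is an interaction: the log2 difference CD1dKOxE7 minus E7 at 28 dpg, minus the same difference at 14 dpg. A positive value means that CD1dKOxE7 grafts stood higher against E7 grafts at 28 dpg than they did at 14 dpg, and a negative value means the opposite. Per the sample descriptions, CD1dKOxE7 libraries were on one lane and E7 and C57 libraries on another lane of the same flow cell. A lane difference that is equal on both days drops out of the interaction, but not out of the difference on a single day, where donor and lane cannot be told apart. Levels are CPM, the counts of a gene scaled to a common library total, and values per library are given in the order of replicates 1, 2 and 3. The 12 libraries held 6726995 to 11069475 counts, and 3 counts in a library corresponded to 0.271 to 0.446 CPM. Keratinocyte and fibroblast genes were present in each library, with Krt5 at 4286 to 6415 CPM and Col1a1 at 1750 to 7918 CPM. The ear cartilage collagen Col2a1 was uneven within groups, at 0.923 to 70.4 CPM.

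The targeted gene did not follow the donor label on both days. Cd1d1 (Entrez 12479, chr3:86995834-87012358, GRCm38) had 5.35, 4.45 and 14.5 CPM in grafts labelled CD1dKOxE7 at 28 dpg and 26.1, 21.6 and 23.2 CPM in the E7 grafts of that day. At 14 dpg Cd1d1 had 13.4, 17.2 and 11.2 CPM in grafts labelled CD1dKOxE7, against 15.2, 14.2 and 16.8 CPM in E7 grafts. The groups did not overlap at 28 dpg and overlapped at 14 dpg. The interaction of Cd1d1 was -1.42 ± 0.49 (log2 ± SE), with an adjusted p of 0.0954 by edgeR's quasi-likelihood test, and its difference on neither single day passed the threshold of 0.05. Without replicate 3 of the CD1dKOxE7 grafts at 28 dpg the interaction was -2.17 (adjusted p 0.000214). Counts per gene do not show whether these reads came from the removed part of Cd1d1, from its remaining exons or from recipient cells, so CD1dKOxE7 is used here as the name on the labels. The neighbouring homologue Cd1d2 had 0.655, 0.523 and 1.19 CPM in CD1dKOxE7 grafts at 28 dpg, against 2.13, 1.42 and 1.13 CPM in the E7 grafts of that day. At 14 dpg Cd1d2 had 1.52, 1.59 and 1.99 CPM in CD1dKOxE7 grafts, against 0.948, 1.20 and 1.26 CPM in E7 grafts. All CD1dKOxE7 values of Cd1d2 at 14 dpg thus lay above those of E7 grafts. By the same test its interaction was -1.53 ± 0.51 (adjusted p 0.0834). Without replicate 3 of the CD1dKOxE7 grafts at 28 dpg it was -1.95 (adjusted p 0.0211). The levels of Cd1d2 are a few counts above the floor, and the 2 genes are similar enough that reads may have been shared between them.

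The E7 transgene was read in all 12 libraries and had 0 counts in the C57 grafts. E7 had 44.2, 44.5 and 18.6 CPM in CD1dKOxE7 grafts at 28 dpg and 25.7, 34.3 and 27.2 CPM in the E7 grafts of that day. At 14 dpg E7 had 20.1, 17.5 and 23.2 CPM in CD1dKOxE7 grafts, all below the 33.7, 40.3 and 38.6 CPM of E7 grafts. The interaction of the transgene was 1.20 ± 0.39 with an adjusted p of 0.0789, and 1.47 (adjusted p 0.000447) without replicate 3 of the CD1dKOxE7 grafts at 28 dpg. The lower level at 14 dpg passed the threshold, with a log2 difference of -0.90 and an adjusted p of 0.0338.

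1 library stood apart. Replicate 3 of the CD1dKOxE7 grafts at 28 dpg differed from the other 2 of its group in Cd1d1 and in the transgene, as the values above show. On the first principal component, which held 40.1% of the variance, it lay at -1.05, between 26.6 and 39.2 for its group mates and -61.4 to -51.3 for the CD1dKOxE7 grafts of 14 dpg. On the second component, with 25.4% of the variance, it lay at -38.9, below every other library. Its expression correlated with the CD1dKOxE7 grafts of 14 dpg at a mean r of 0.953 across genes, against 0.937 and 0.925 for its group mates. Its mean r was higher with its own group, 0.960, and with the E7 grafts of 28 dpg, 0.964. Macrophage and monocyte genes summed to 3605 CPM in it, against 1468 and 1762 CPM in its group mates. Hox genes of trunk position summed to 79.7 CPM in it, against 26.5 and 23.7 CPM in its group mates and 53.1 to 83.2 CPM in E7 grafts of 28 dpg. At 14 dpg they summed to 49.9 to 58.6 CPM in CD1dKOxE7 grafts and 31.7 to 57.7 CPM in E7 grafts. For these genes the group mates were thus the lowest libraries. The part these differences play in the results was not tested, so each main count is given with and without this library.

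**Figure D1:**
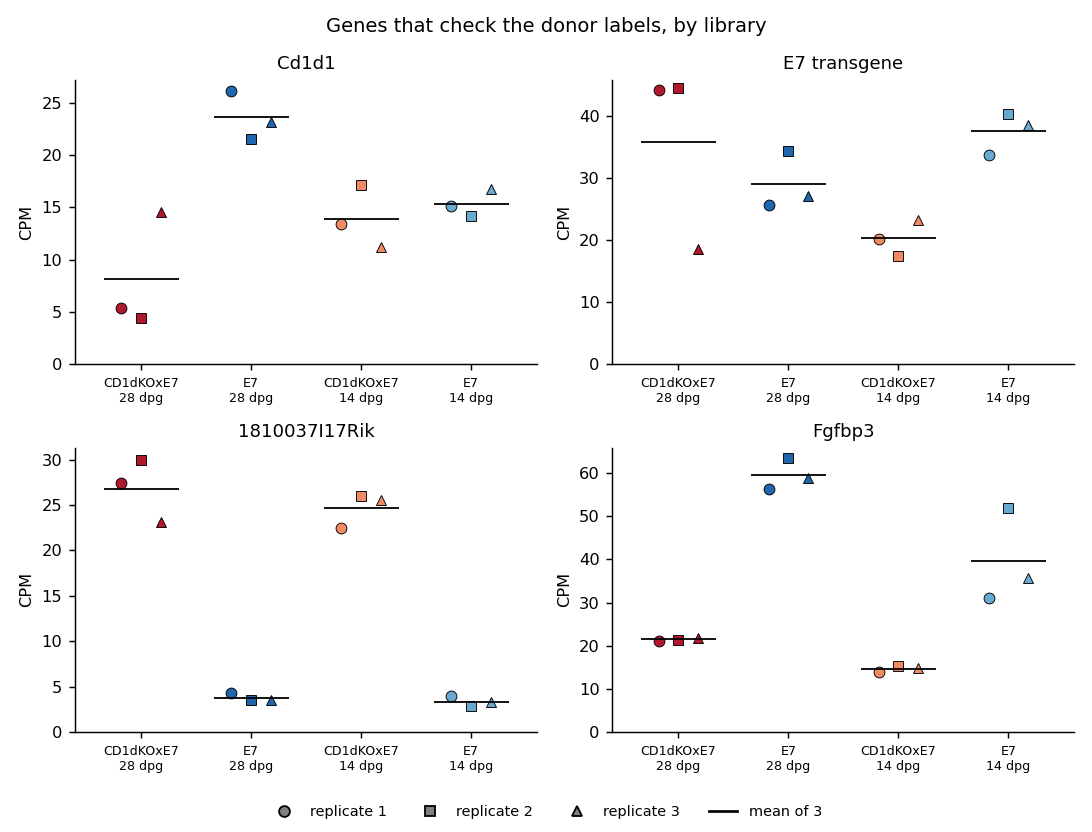
Levels in CPM of Cd1d1, the E7 transgene, 1810037I17Rik and Fgfbp3 in each of the 12 libraries, with groups on the x axis, symbols for replicates and bars for the mean of 3. Replicate 3 of CD1dKOxE7 at 28 dpg stands at 14.5 CPM for Cd1d1 and 18.6 CPM for E7, apart from its group mates. 1810037I17Rik and Fgfbp3 separate the donor labels on both days in all 6 CD1dKOxE7 libraries. Both were picked because they passed at 28 dpg with that replicate 3 included, so its place in them was favoured by the choice.

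For most genes that passed in the interaction, the donor difference was smaller at 28 dpg than at 14 dpg. At 14 dpg, 4141 of 15788 genes tested (26.2%) differed between CD1dKOxE7 and E7 grafts, 2184 higher (13.8%) and 1957 lower (12.4%) in CD1dKOxE7. At 28 dpg, 5 genes (0.0317%) passed the same threshold, 2 higher (0.0127%) and 3 lower (0.019%) in CD1dKOxE7, while 1719 genes had an unadjusted p under 0.05 and DESeq2 called 145 genes. The interaction, which tests the difference between the days directly, passed for 1314 genes (8.32%), of which 653 were positive (4.14%) and 661 were negative (4.19%). Of the 653 positive genes, 622 were lower in CD1dKOxE7 than in E7 grafts at 14 dpg and none was higher by the test. Of the 661 negative genes, 649 were higher in CD1dKOxE7 at 14 dpg and none was lower. The median difference of the positive genes was 0.14 at 28 dpg and -0.64 at 14 dpg on the log2 scale, and that of the negative genes was 0.15 at 28 dpg and 1.37 at 14 dpg. In 625 positive and 650 negative genes the absolute difference was smaller at 28 dpg than at 14 dpg. The interaction that selected these genes is made from the same 2 differences, so these counts and medians are not independent of the selection. The share of all genes tested with a smaller absolute difference at 28 dpg was not counted. Negative genes reached larger sizes, with 433 of 661 at an absolute log2 value of at least 1, against 208 of 653 positive genes.

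Without replicate 3 of CD1dKOxE7 at 28 dpg the interaction passed for 3472 of 16019 genes (21.7%), 1503 positive (9.38%) and 1969 negative (12.3%). The difference at 28 dpg then passed for 127 genes (0.793%), 52 higher (0.325%) and 75 lower (0.468%). The median difference at 28 dpg without it was 0.22 for the positive and -0.14 for the negative genes, and 1373 of 1503 positive and 1352 of 1969 negative genes had opposite signs on the 2 days, against 525 of 653 and 211 of 661 with all libraries. Selection by the interaction favours opposite signs, and the 2 fits called different sets of genes. The share of all genes tested with opposite signs was not counted. Both fits shared 1305 genes, which are 99.3% of the genes called with all libraries and 37.6% of those called without that library. Leaving out any other library gave 442 to 1324 genes, each from 11 libraries.

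**Figure D2:**
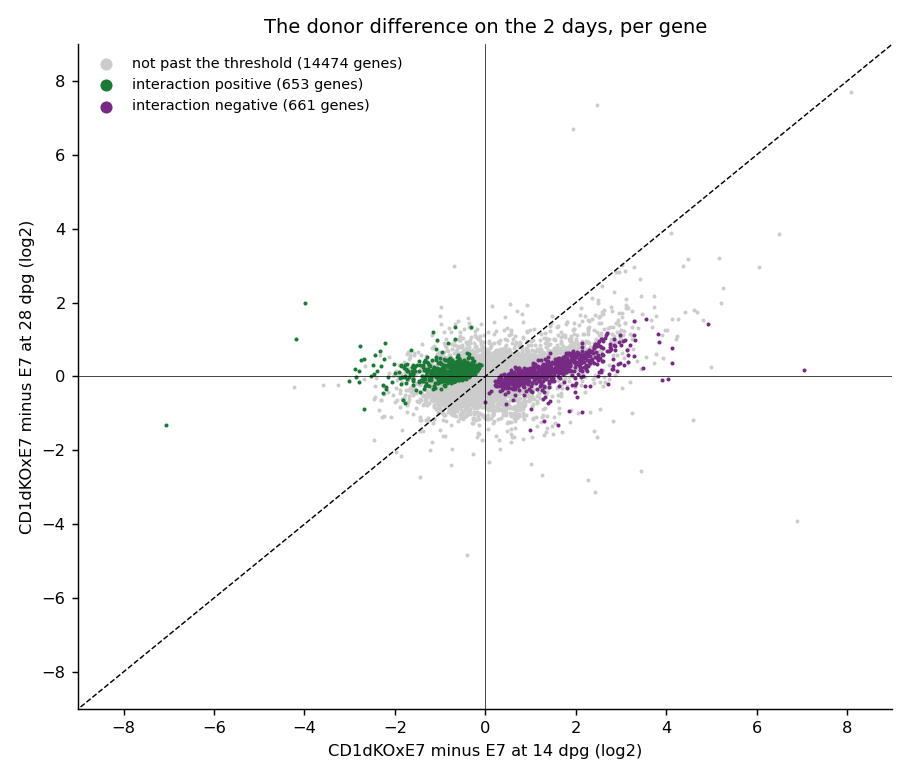
Log2 difference CD1dKOxE7 minus E7 of each gene tested at 14 dpg (x axis) and at 28 dpg (y axis), with the 653 positive genes of the interaction in green, the 661 negative genes in purple, all others in grey and a dashed line where both differences are equal. Coloured genes spread far along the x axis and lie near 0 on the y axis, with medians of 0.14 and 0.15 at 28 dpg against -0.64 and 1.37 at 14 dpg. They were selected by the interaction, which is made from both differences.

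Lymphocyte genes were on the negative side. The counts of list members here and below are to be read beside the shares of all genes tested. In the interaction with all libraries 4.19% were negative and 4.14% positive. Without replicate 3 of CD1dKOxE7 at 28 dpg 12.3% were negative and 9.38% positive. Counts of members that differed at 14 dpg have other shares beside them. On that day 13.8% of all genes tested were higher and 12.4% lower in CD1dKOxE7 grafts. Of 25 T cell receptor and coreceptor genes tested, 14 were negative in the interaction and 0 positive, with a median of -1.56 against 0.00 over all genes tested. In 22 of the 25 the level at 14 dpg was higher in CD1dKOxE7 grafts by the test. With that replicate 3 left out, 22 of 25 were negative. In whole grafts, fewer cells of a type and less RNA per cell cannot be told apart. Cd3d (Entrez 12500, chr9:44981769-44987052), a signalling chain of the T cell receptor complex, had 6.33, 4.71 and 10.0 CPM in CD1dKOxE7 grafts and 4.27, 4.26 and 4.26 CPM in E7 grafts at 28 dpg. At 14 dpg Cd3d had 31.0, 30.3 and 37.1 CPM in CD1dKOxE7 grafts and 2.84, 4.79 and 3.33 CPM in E7 grafts. The CD1dKOxE7 grafts of 14 dpg thus stood several times above the other 9 libraries. The interaction of Cd3d was -2.42 ± 0.37 (adjusted p 0.00684). The adhesion receptor Cd2, with -2.16, and the costimulatory receptor Icos, with -1.57, passed likewise, as did Cd3e with -2.03 and Cd3g with -1.89. Cd8a, a chain of the coreceptor of cytotoxic T cells, had 6.88, 4.71 and 24.5 CPM in CD1dKOxE7 grafts and 2.14, 2.84 and 1.88 CPM in E7 grafts at 28 dpg. At 14 dpg Cd8a had 73.0, 67.1 and 83.2 CPM in CD1dKOxE7 grafts and 1.58, 2.07 and 2.07 CPM in E7 grafts. Its interaction of -2.87 missed the threshold with an adjusted p of 0.0631, and the highest of its 28 dpg values was that of the library that stands apart. Cd4, the coreceptor of helper T cells, had an interaction of -1.01 with an adjusted p of 0.104. Trat1, which binds the T cell receptor, is a gene whose groups lay on opposite sides on both days, although its difference at 28 dpg did not pass. It had 0.983, 0.523 and 1.45 CPM in CD1dKOxE7 grafts and 1.63, 2.41 and 1.75 CPM in E7 grafts at 28 dpg. At 14 dpg it had 2.66, 2.57 and 1.85 CPM in CD1dKOxE7 grafts and 0.316, 0.545 and 0.689 CPM in E7 grafts. Its interaction was -3.09 ± 0.54 (adjusted p 0.0104). The receptor segment Trbv19 was negative at -4.11, but rested on 66 counts in CD1dKOxE7 grafts and 3 counts in E7 grafts at 14 dpg, a ratio per library total of 19.6 with a 95% exact interval from 6.41 to 97.3. It passed in 5 of the 12 fits that leave out 1 library.

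Genes of killing were on the same side. Of 14 cytotoxic lymphocyte genes tested, 7 were negative and 0 positive, with a median of -1.97, and 13 of the 14 were higher in CD1dKOxE7 grafts at 14 dpg. With replicate 3 of CD1dKOxE7 at 28 dpg left out, 11 of 14 were negative. Gzmb (Entrez 14939, chr14:56258836-56262334), the protease granzyme B, had 4.80, 5.76 and 4.62 CPM in CD1dKOxE7 grafts and 2.89, 3.69 and 5.14 CPM in E7 grafts at 28 dpg. At 14 dpg Gzmb had 60.1, 43.5 and 56.8 CPM in CD1dKOxE7 grafts and 1.90, 1.85 and 5.28 CPM in E7 grafts. The groups overlapped at 28 dpg and were far apart at 14 dpg, and replicate 3 of CD1dKOxE7 at 28 dpg was the lowest of its group. The interaction of Gzmb was -3.75 ± 0.49 (adjusted p 0.00405), and Gzmb averaged 1.36 CPM in C57 grafts at 28 dpg and 1.55 CPM at 14 dpg. Prf1, the pore-forming perforin, had 0.983, 1.31 and 5.54 CPM in CD1dKOxE7 grafts and 1.88, 2.27 and 2.38 CPM in E7 grafts at 28 dpg. At 14 dpg Prf1 had 12.4, 12.1 and 15.7 CPM in CD1dKOxE7 grafts and 0.790, 1.20 and 1.49 CPM in E7 grafts. At 28 dpg replicates 1 and 2 lay below every E7 graft and replicate 3 above. The interaction of Prf1 was -3.24 with an adjusted p of 0.0283, was -4.44 without replicate 3, and passed in 4 of the 12 fits that leave out 1 library. Gzmc, another granzyme, and Ctsw, a protease of cytotoxic cells, were negative at -2.48 and -2.57. Ifng, the gene of interferon gamma, was chosen after its values were seen. It had 1.42, 1.70 and 4.75 CPM in CD1dKOxE7 grafts and 0.754, 0.568 and 0.376 CPM in E7 grafts on day 28, and 6.83, 6.73 and 12.7 CPM in CD1dKOxE7 grafts and 0.790, 0.327 and 1.26 CPM in E7 grafts at 14 dpg. CD1dKOxE7 grafts lay above E7 grafts on both days, and the interaction of -1.27 did not pass (adjusted p 0.413).

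Of 17 NK and NKT cell genes, 9 were negative and 0 positive, with a median of -2.01, and 16 of the 17 were higher in CD1dKOxE7 grafts at 14 dpg. In the fit without replicate 3 of CD1dKOxE7 at 28 dpg 13 of 17 were negative. Xcl1, a chemokine released by NK and CD8 T cells, had 2.84, 3.53 and 5.41 CPM in CD1dKOxE7 grafts and 2.39, 1.70 and 2.00 CPM in E7 grafts at 28 dpg. At 14 dpg Xcl1 had 12.4, 14.4 and 14.1 CPM in CD1dKOxE7 grafts and 0.790, 1.31 and 0.689 CPM in E7 grafts. CD1dKOxE7 grafts were higher in each library on both days, by a smaller margin at 28 dpg, and the interaction was -2.90 ± 0.42 (adjusted p 0.00525). The receptors Cd160 and Il2rb were negative at -2.72 and -2.33, and the NK receptor genes Klrb1c, Klrd1, Klrb1b, Klrk1, Klra7 and Ncr1 passed in the same direction. Zbtb16, the transcription factor PLZF that marks the NKT lineage, was chosen after its values were seen. It had 3.49, 4.06 and 5.15 CPM in CD1dKOxE7 grafts and 9.54, 5.53 and 5.51 CPM in E7 grafts on day 28, with 1.52, 3.89 and 1.57 CPM in CD1dKOxE7 grafts and 3.63, 2.29 and 3.67 CPM in E7 grafts at 14 dpg, and its interaction of -0.30 did not pass (adjusted p 0.778).

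Of 18 regulatory and checkpoint genes, which restrain T cells, 11 were negative and 0 positive, with a median of -1.41, and 15 were negative without replicate 3 of CD1dKOxE7 at 28 dpg. The ligands Pdcd1lg2 and Cd274 were negative at -2.60 and -1.40, and the inhibitory receptors Lag3 and Havcr2 at -2.15 and -1.36. Foxp3, the transcription factor of regulatory T cells, had 7.10, 6.94 and 7.39 CPM in CD1dKOxE7 grafts and 3.89, 5.11 and 6.14 CPM in E7 grafts at 28 dpg. At 14 dpg Foxp3 had 22.2, 16.7 and 16.9 CPM in CD1dKOxE7 grafts and 3.95, 4.69 and 6.09 CPM in E7 grafts. CD1dKOxE7 grafts were above E7 grafts on both days, and the interaction was -1.41 ± 0.29 (adjusted p 0.0179). Pdcd1 had an interaction of -1.86 with an adjusted p of 0.186.

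**Figure D3:**
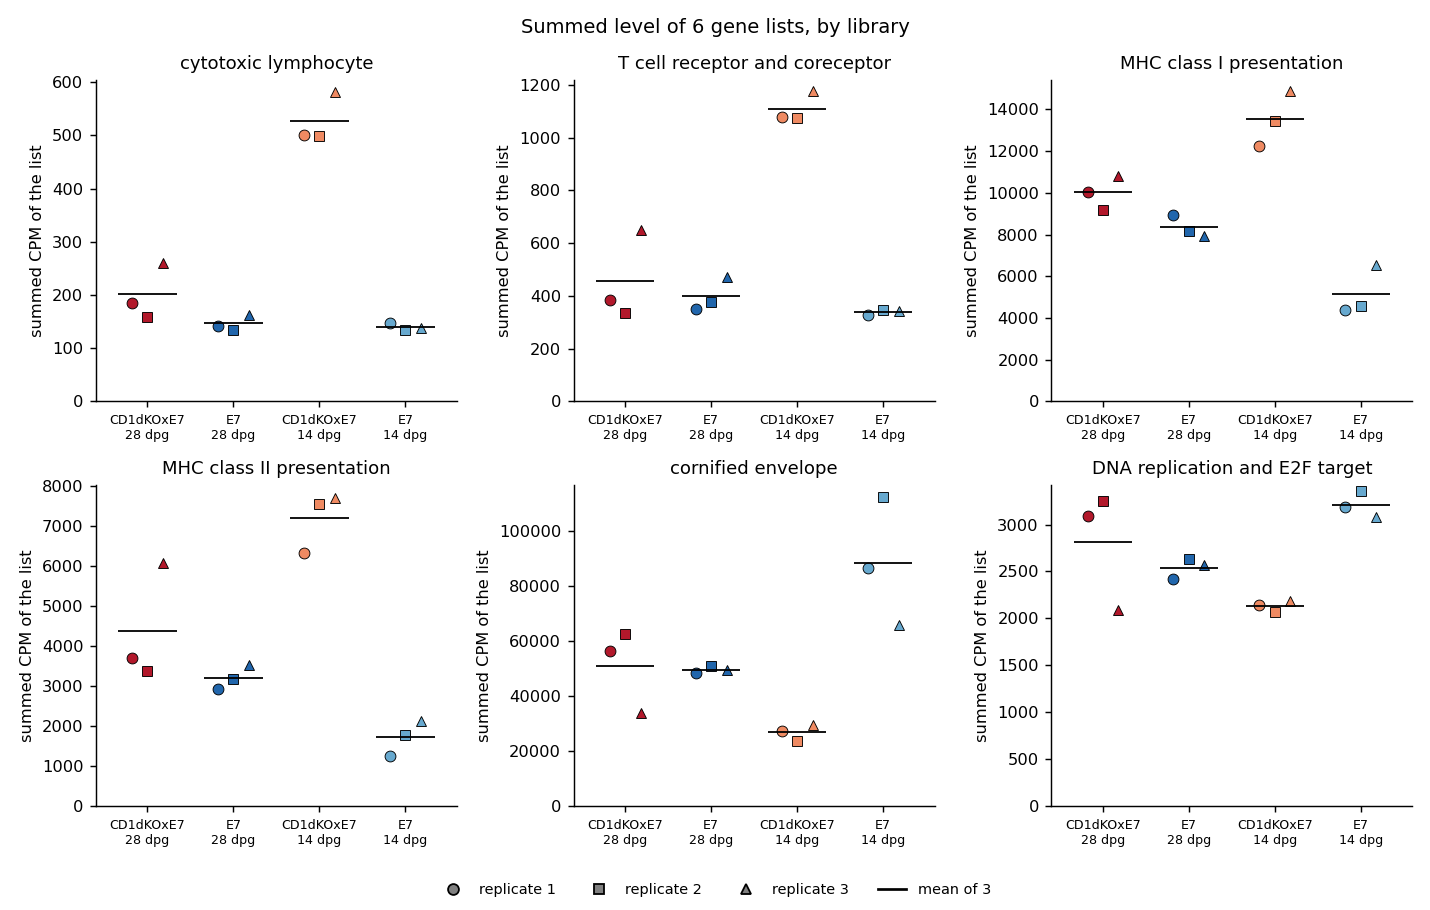
Summed CPM of the members of 6 gene lists in each of the 12 libraries, with groups on the x axis, symbols for replicates and bars for the mean of 3. The lymphocyte and MHC lists are highest in the CD1dKOxE7 grafts of 14 dpg, and the cornified envelope and DNA replication lists are highest in the E7 grafts of 14 dpg.

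The summed levels show which libraries carried each list. Cytotoxic genes summed to 185, 159 and 260 CPM in CD1dKOxE7 grafts and 142, 134 and 163 CPM in E7 grafts on day 28, and to 500, 500 and 582 CPM in CD1dKOxE7 grafts and 147, 134 and 138 CPM in E7 grafts at 14 dpg. E7 grafts thus held about the same level on both days and the CD1dKOxE7 grafts of 14 dpg stood alone. MHC class II genes summed to 3696, 3370 and 6070 CPM in CD1dKOxE7 grafts and 2926, 3190 and 3533 CPM in E7 grafts on day 28, and to 6332, 7555 and 7715 CPM in CD1dKOxE7 grafts and 1255, 1780 and 2133 CPM in E7 grafts at 14 dpg. For MHC class II the E7 grafts of 28 dpg also stood above those of 14 dpg, so both donors lay closer together at 28 dpg. Replicate 3 of CD1dKOxE7 at 28 dpg was the highest library of its group in each of these lists.

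Antigen presentation genes had the highest share of negative members of the lists with at least 10 genes tested. Of 18 MHC class I presentation genes, 16 were negative and 0 positive, with a median of -1.12, and all 18 were higher in CD1dKOxE7 grafts at 14 dpg. The exceptions were the proteasome activator Psme2 and the peptide trimming enzyme Erap1, with adjusted p of 0.055 and 0.057. H2-K1 (Entrez 14972, chr17:33996012-34000619), a heavy chain that shows peptides to CD8 T cells, had 2675, 2365 and 2732 CPM in CD1dKOxE7 grafts and 2416, 2177 and 2038 CPM in E7 grafts at 28 dpg. At 14 dpg H2-K1 had 3131, 3492 and 3768 CPM in CD1dKOxE7 grafts and 1062, 1181 and 1576 CPM in E7 grafts. The groups overlapped at 28 dpg and were well apart at 14 dpg, and the interaction was -1.22 ± 0.21 (adjusted p 0.00963). H2-D1 was negative at -0.94, and counts may have been split between H2-K1, H2-D1 and the H2-Q genes because their sequences are near-identical in parts. B2m (Entrez 12010), the light chain shared by all class I molecules and by CD1d, is a single gene free of that doubt. B2m had 2516, 2364 and 2576 CPM in CD1dKOxE7 grafts and 2103, 2037 and 2096 CPM in E7 grafts on day 28, and 2946, 2865 and 3302 CPM in CD1dKOxE7 grafts and 996, 1051 and 1581 CPM in E7 grafts at 14 dpg. CD1dKOxE7 grafts were higher on both days and the interaction was -1.07 ± 0.22 (adjusted p 0.0177). Of 12 MHC class II presentation genes, 9 were negative and 0 positive, with a median of -1.54. H2-Ab1, a chain of the class II molecule, had 632, 541 and 942 CPM in CD1dKOxE7 grafts and 493, 547 and 580 CPM in E7 grafts at 28 dpg. At 14 dpg H2-Ab1 had 1033, 1249 and 1279 CPM in CD1dKOxE7 grafts and 187, 281 and 336 CPM in E7 grafts. Its interaction was -1.76 ± 0.32 (adjusted p 0.0131). H2-Aa, Cd74 and Ciita, the class II transactivator, were negative at -1.56, -1.70 and -1.58. All 18 class I and all 12 class II genes were negative without replicate 3 of CD1dKOxE7 at 28 dpg.

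Promoter windows of 3 called genes from the lists with many called members on either side are shown for the letters they hold, from 250 bases before to 50 bases after the gene start, as given by RefSeq for GRCm38.p6. The motifs and genes were picked after the values were seen. Capitals mark the match, searched on both strands. It is GAAA, any 2 bases and GAAA again, the core of the interferon-stimulated response element (ISRE), in B2m (chr2:122147437-122147736, plus strand), CCAAT, the box bound by NF-Y, on the opposite strand in H2-Aa (chr17:34287774-34288073, minus strand), and TGANTCA, the AP-1 site, in Ivl (chr3:92573686-92573985, minus strand).
B2m: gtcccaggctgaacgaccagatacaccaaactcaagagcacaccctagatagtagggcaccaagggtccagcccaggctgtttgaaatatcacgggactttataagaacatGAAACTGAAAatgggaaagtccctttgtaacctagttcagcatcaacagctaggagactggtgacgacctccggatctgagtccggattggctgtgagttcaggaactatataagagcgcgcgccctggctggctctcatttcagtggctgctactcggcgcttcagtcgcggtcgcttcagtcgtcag
H2-Aa: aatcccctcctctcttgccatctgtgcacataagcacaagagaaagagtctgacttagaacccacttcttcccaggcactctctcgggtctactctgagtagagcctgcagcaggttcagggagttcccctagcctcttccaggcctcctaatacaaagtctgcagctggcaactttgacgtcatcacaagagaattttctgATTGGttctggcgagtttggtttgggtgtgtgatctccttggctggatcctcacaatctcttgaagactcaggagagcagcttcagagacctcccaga
Ivl: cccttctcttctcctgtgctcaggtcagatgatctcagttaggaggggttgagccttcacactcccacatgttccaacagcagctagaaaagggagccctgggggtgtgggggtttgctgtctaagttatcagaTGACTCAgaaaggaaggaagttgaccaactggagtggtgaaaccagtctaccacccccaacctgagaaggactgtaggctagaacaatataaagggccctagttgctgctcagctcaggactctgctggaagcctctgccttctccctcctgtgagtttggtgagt
This ISRE core occurred in 3.44% of all 32851 windows, in 3.95% of the genes tested and in 5 of 16 MHC class I presentation genes with a window (the genes B2m, Erap1, H2-T22, H2-T23 and Psme1), 1 of 9 MHC class II presentation genes and 1 of 31 cornified envelope genes. CCAAT occurred in 37.4% of all windows, in 42.2% of the genes tested in 7 of 9 MHC class II presentation genes, in 11 of 16 MHC class I presentation genes and in 13 of 31 cornified envelope genes. TGANTCA occurred in 7.81% of all windows, in 7.11% of the genes tested in 6 of 31 cornified envelope genes, in 2 of 9 MHC class II presentation genes and in 0 of 16 MHC class I presentation genes. The windows of H2-K1 and Tap1 held no ISRE core and those of Cdsn held no TGANTCA. A match describes letters and does not show that a factor was bound.

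Myeloid, chemokine and complement genes were negative less uniformly. Of 22 macrophage and monocyte genes 3 were negative and 0 positive, with a median of -0.99. Without replicate 3 of CD1dKOxE7 at 28 dpg 16 were negative. The negative share of all genes tested rose as well, from 4.19% with all libraries to 12.3% without that library. Ly6c2, a marker of inflammatory monocytes, had 28.5, 20.4 and 30.3 CPM in CD1dKOxE7 grafts and 10.8, 18.6 and 16.0 CPM in E7 grafts at 28 dpg. At 14 dpg Ly6c2 had 73.3, 98.6 and 109 CPM in CD1dKOxE7 grafts and 11.7, 15.3 and 20.7 CPM in E7 grafts. Its interaction was -1.74 ± 0.36 (adjusted p 0.0192). The chemokine receptor Ccr2 was negative at -1.52 and passed in 3 of the 12 fits that leave out 1 library. Of 17 dendritic and Langerhans cell genes 3 were negative, Sirpa, Batf3 and Irf8, and 11 were negative without that replicate 3. The neutrophil and acute inflammation list had 2 negative genes of 13 tested, Il1b and Csf3r, and 0 positive, against 4.19% of all genes negative. Without that replicate 3 it had 5 negative genes of 14, against 12.3% of all genes. Il1b, an early inflammatory cytokine, had 21.1, 12.7 and 17.4 CPM in CD1dKOxE7 grafts and 7.91, 12.1 and 18.3 CPM in E7 grafts at 28 dpg. At 14 dpg Il1b had 93.3, 55.4 and 75.7 CPM in CD1dKOxE7 grafts and 11.5, 14.4 and 10.9 CPM in E7 grafts. The groups overlapped at 28 dpg alone, and the interaction was -2.18 ± 0.42 (adjusted p 0.0158). The acute phase genes Lcn2 and Saa3 were negative at -3.99 and -3.50. Lcn2 was the 1 negative gene of 14 tested in the IL-17 and IL-20 family list, which also had 1 positive gene, Il20rb. Of all genes tested 4.19% were negative and 4.14% positive. Lcn2 had 9.39, 8.38 and 6.60 CPM in CD1dKOxE7 grafts and 16.6, 4.40 and 5.01 CPM in E7 grafts on day 28, and 57.1, 92.3 and 42.1 CPM in CD1dKOxE7 grafts and 3.48, 5.34 and 3.90 CPM in E7 grafts at 14 dpg. Saa3 passed in 2 of the 12 fits that leave out 1 library.

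Of 23 CC and lymphoid chemokine genes 4 were negative, Ccl1, Cxcl16, Ccl11 and Ccl2, against 4.19% of all genes tested. Without replicate 3 of CD1dKOxE7 at 28 dpg 13 were negative and 1 positive, against 12.3% and 9.38% of all genes. Ccl1, a chemokine made by activated T cells, had the most negative interaction of the genes named, -6.88 ± 0.79 (adjusted p 0.00371). It had 0.874, 0.916 and 1.32 CPM in CD1dKOxE7 grafts and 0.879, 1.14 and 0.752 CPM in E7 grafts on day 28, and 5.03, 7.61 and 9.68 CPM in CD1dKOxE7 grafts and 0, 0.109 and 0 CPM in E7 grafts at 14 dpg. E7 grafts of 14 dpg held 1 count of Ccl1 in all and CD1dKOxE7 grafts 207 counts, a ratio per library total of 184 with a 95% exact interval from 32.7 to 7310, so the fitted size depends on how that 1 count is treated. Ccl11, which attracts eosinophils, had 38.8, 33.9 and 59.8 CPM in CD1dKOxE7 grafts and 36.4, 28.4 and 41.1 CPM in E7 grafts at 28 dpg. At 14 dpg Ccl11 had 41.5, 35.0 and 45.0 CPM in CD1dKOxE7 grafts and 6.64, 6.65 and 12.5 CPM in E7 grafts. For Ccl11 the E7 grafts of 14 dpg were the low group and the other groups overlapped, with an interaction of -1.90. Of 17 complement genes 4 were negative, Cfb, C2, C1s1 and C1ra, and 11 were negative without replicate 3 of CD1dKOxE7 at 28 dpg. Cfb, factor B of the alternative pathway, was negative at -1.73 ± 0.34 (adjusted p 0.0167).

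None of the 36 interferon response genes passed in the interaction. At 14 dpg 27 were higher in CD1dKOxE7 grafts, against 13.8% of all genes tested. The median of the list was -0.63, and 35 of the 36 values were below 0. Without replicate 3 of CD1dKOxE7 at 28 dpg 10 genes were negative, against 12.3% of all genes tested in that fit. Xaf1, which has the smallest p of the list, had 55.9, 62.8 and 53.7 CPM in CD1dKOxE7 grafts and 54.0, 46.8 and 44.6 CPM in E7 grafts on day 28, and 83, 81.2 and 108 CPM in CD1dKOxE7 grafts and 43.8, 45.8 and 55.5 CPM in E7 grafts at 14 dpg. Its interaction was -0.66 with an adjusted p of 0.0511. Interferon response genes summed to 4257, 4487 and 5487 CPM in CD1dKOxE7 grafts and 3552, 2859 and 2676 CPM in E7 grafts on day 28, and to 7739, 8951 and 11640 CPM in CD1dKOxE7 grafts and 2798, 2870 and 4365 CPM in E7 grafts at 14 dpg. CD1dKOxE7 grafts were above E7 grafts on both days.

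**Figure D4:**
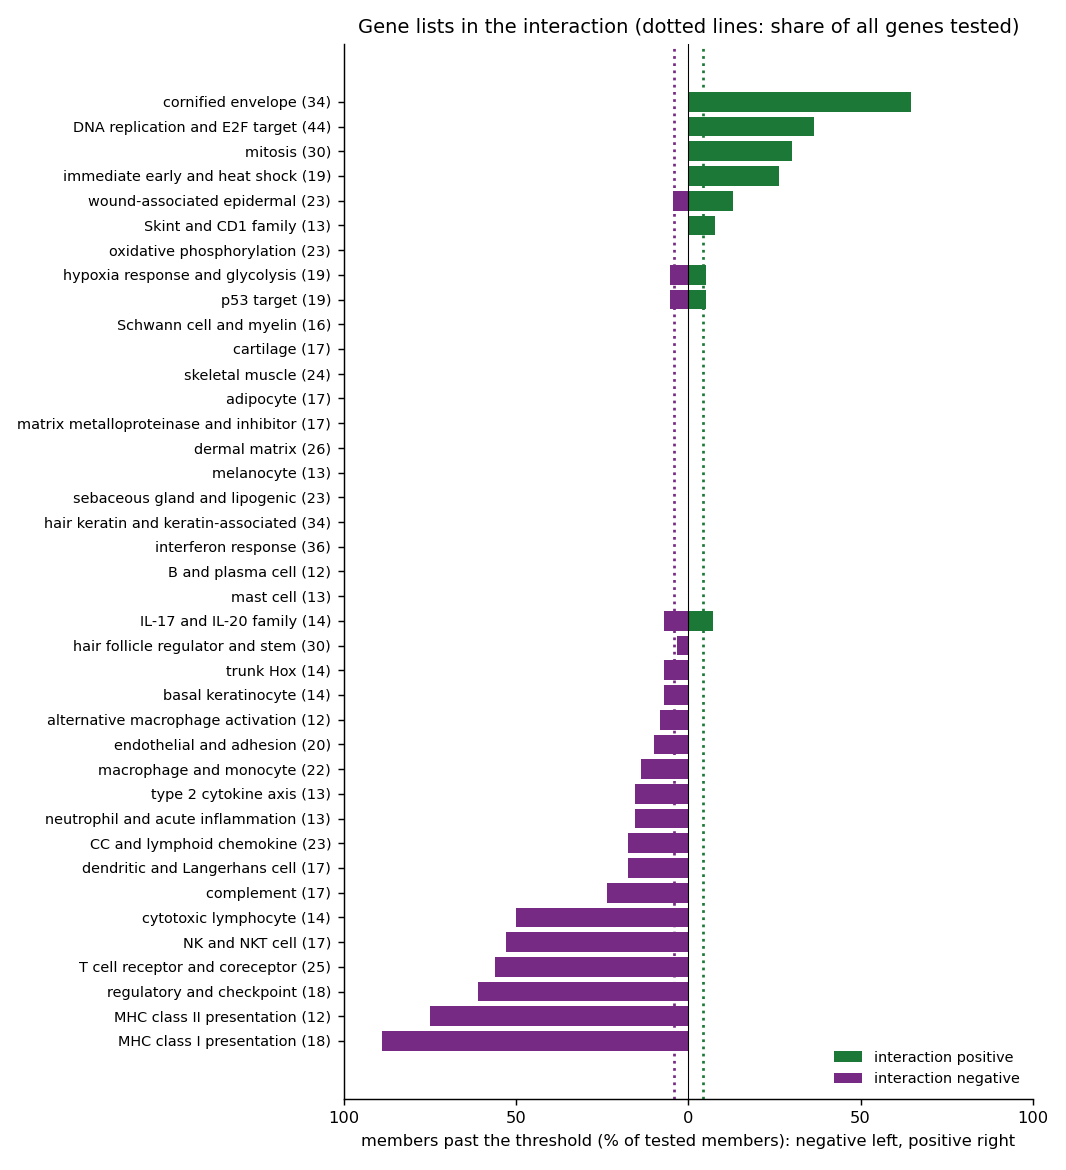
Share of tested members of each gene list with at least 10 genes tested that were negative (purple, left) or positive (green, right) in the interaction, with the number tested in brackets and dotted lines at the shares of all genes, 4.19% and 4.14%. MHC, T cell, checkpoint, NK and cytotoxic lists lie far left, and cornified envelope, DNA replication and mitosis lists far right.

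Genes of keratinocyte differentiation stood on the positive side. Of 34 cornified envelope genes tested, which build the outer barrier of the epidermis, 22 were positive and 0 negative, with a median of 1.53 against 0.00 over all genes tested. The same number, 22, were lower in CD1dKOxE7 grafts at 14 dpg, against 12.4% of all genes tested. At 28 dpg 0 of the list differed by the test. When replicate 3 of CD1dKOxE7 at 28 dpg was left out, 23 were positive. Ivl (Entrez 16447, chr3:92570899-92573790), the envelope precursor involucrin, had 427, 449 and 318 CPM in CD1dKOxE7 grafts and 360, 358 and 338 CPM in E7 grafts at 28 dpg. At 14 dpg Ivl had 232, 203 and 241 CPM in CD1dKOxE7 grafts and 553, 655 and 534 CPM in E7 grafts. At 28 dpg replicate 3 lay below the E7 grafts and replicates 1 and 2 above, while at 14 dpg the groups were far apart. The interaction of Ivl was 1.54 ± 0.18 (adjusted p 0.00371), and Ivl averaged 195 CPM in C57 grafts at 28 dpg and 319 CPM at 14 dpg. Flg, the precursor of filaggrin, had 2426, 2314 and 1606 CPM in CD1dKOxE7 grafts and 2064, 1972 and 1706 CPM in E7 grafts at 28 dpg. At 14 dpg Flg had 659, 838 and 1114 CPM in CD1dKOxE7 grafts and 4606, 5929 and 3166 CPM in E7 grafts, and its interaction was 2.54. The E7 grafts of 14 dpg were the highest group and the CD1dKOxE7 grafts of 14 dpg the lowest, without overlap.

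Krt10, the keratin of differentiating cells, had 16330, 17470 and 7414 CPM in CD1dKOxE7 grafts and 14930, 15060 and 15840 CPM in E7 grafts at 28 dpg. At 14 dpg Krt10 had 3890, 2910 and 4469 CPM in CD1dKOxE7 grafts and 24290, 37030 and 17370 CPM in E7 grafts, and its interaction was 2.65 (adjusted p 0.0115). Cdsn, the desmosome protein corneodesmosin, and Crct1 were positive at 1.40 and 1.25, as were Hrnr at 2.85 and Lor, the gene of loricrin, at 1.93. Krt2, a keratin of the upper epidermis, had 917, 827 and 21.4 CPM in CD1dKOxE7 grafts and 1617, 2343 and 421 CPM in E7 grafts at 28 dpg. At 14 dpg Krt2 had 12.2, 6.99 and 6.12 CPM in CD1dKOxE7 grafts and 921, 847 and 1640 CPM in E7 grafts. Its interaction of 5.74 (adjusted p 0.0439) passed in 1 of the 12 fits that leave out 1 library, the fit without replicate 3 of CD1dKOxE7 at 28 dpg. The transglutaminases Tgm1 and Tgm3, which link envelope proteins, had interactions of 0.56 and 0.63 that did not pass. Of 14 basal keratinocyte genes 1 was negative and 0 positive. It was Lamb3, a chain of the basement membrane protein laminin 332, with 72.0, 72.6 and 91.9 CPM in CD1dKOxE7 grafts and 92.8, 98.2 and 92.6 CPM in E7 grafts at 28 dpg. At 14 dpg Lamb3 had 133, 76.2 and 120 CPM in CD1dKOxE7 grafts and 74.9, 71.2 and 66.2 CPM in E7 grafts, and its interaction was -0.90. The basal keratins Krt5 and Krt14 had interactions of -0.24 and -0.51 that did not pass.

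Of 23 wound-associated epidermal genes, 3 were positive, Ereg, Sprr2h and Sprr1b, and 1 was negative, Plaur. Of all genes tested 4.14% were positive and 4.19% negative. The median of the list was -0.40, with 16 of 23 values below 0. Without replicate 3 of CD1dKOxE7 at 28 dpg 3 genes were positive and 5 negative, against 9.38% and 12.3% of all genes. Ereg, the EGF receptor ligand epiregulin, had 275, 172 and 80.9 CPM in CD1dKOxE7 grafts and 92.3, 90.0 and 114 CPM in E7 grafts at 28 dpg. At 14 dpg Ereg had 41.5, 28.5 and 35.7 CPM in CD1dKOxE7 grafts and 256, 235 and 233 CPM in E7 grafts. The interaction of Ereg was 3.61 ± 0.49 (adjusted p 0.00539). Sprr1b, an envelope protein induced in wounds, had 651, 812 and 601 CPM in CD1dKOxE7 grafts and 372, 333 and 398 CPM in E7 grafts on day 28, and 709, 439 and 640 CPM in CD1dKOxE7 grafts and 1544, 790 and 832 CPM in E7 grafts at 14 dpg. CD1dKOxE7 grafts were the higher group at 28 dpg and the lower group at 14 dpg in every library, and the interaction was 1.73. The difference of Sprr1b at 28 dpg did not pass by itself. The stress keratins Krt6a, Krt6b, Krt16 and Krt17 did not pass, with interactions of -1.23 to -0.25.

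Nmu (Entrez 56183), the neuropeptide neuromedin U, had 9.28, 10.1 and 4.49 CPM in CD1dKOxE7 grafts and 4.02, 4.54 and 3.38 CPM in E7 grafts at 28 dpg. At 14 dpg Nmu had 1.04, 0.797 and 0.712 CPM in CD1dKOxE7 grafts and 17.7, 18.4 and 11.6 CPM in E7 grafts. Its interaction was 5.18 ± 0.46 (adjusted p 0.00167). In C57 grafts Nmu averaged 0.832 CPM at 28 dpg and 6.28 CPM at 14 dpg. Spink7, a protease inhibitor of squamous epithelium, had 30.4, 28.7 and 24.5 CPM in CD1dKOxE7 grafts and 7.28, 9.22 and 4.76 CPM in E7 grafts at 28 dpg. At 14 dpg Spink7 had 4.08, 8.32 and 11.9 CPM in CD1dKOxE7 grafts and 169, 137 and 70.5 CPM in E7 grafts. All 3 CD1dKOxE7 grafts were above E7 grafts at 28 dpg and below them at 14 dpg, replicate 3 included, and the interaction was 5.96 ± 0.58 (adjusted p 0.00365). Kcnj12, a potassium channel, and Rgn, the calcium-binding protein regucalcin, had their groups on opposite sides in the same way, with interactions of 3.11 and 3.19. The differences of Spink7, Kcnj12 and Rgn at 28 dpg did not pass the threshold by themselves. The share of all genes with groups on opposite sides was not counted. The water channel Aqp5 and Slurp2, a secreted protein of the Ly6 family, were positive at 3.16 and 3.06.

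**Figure D5:**
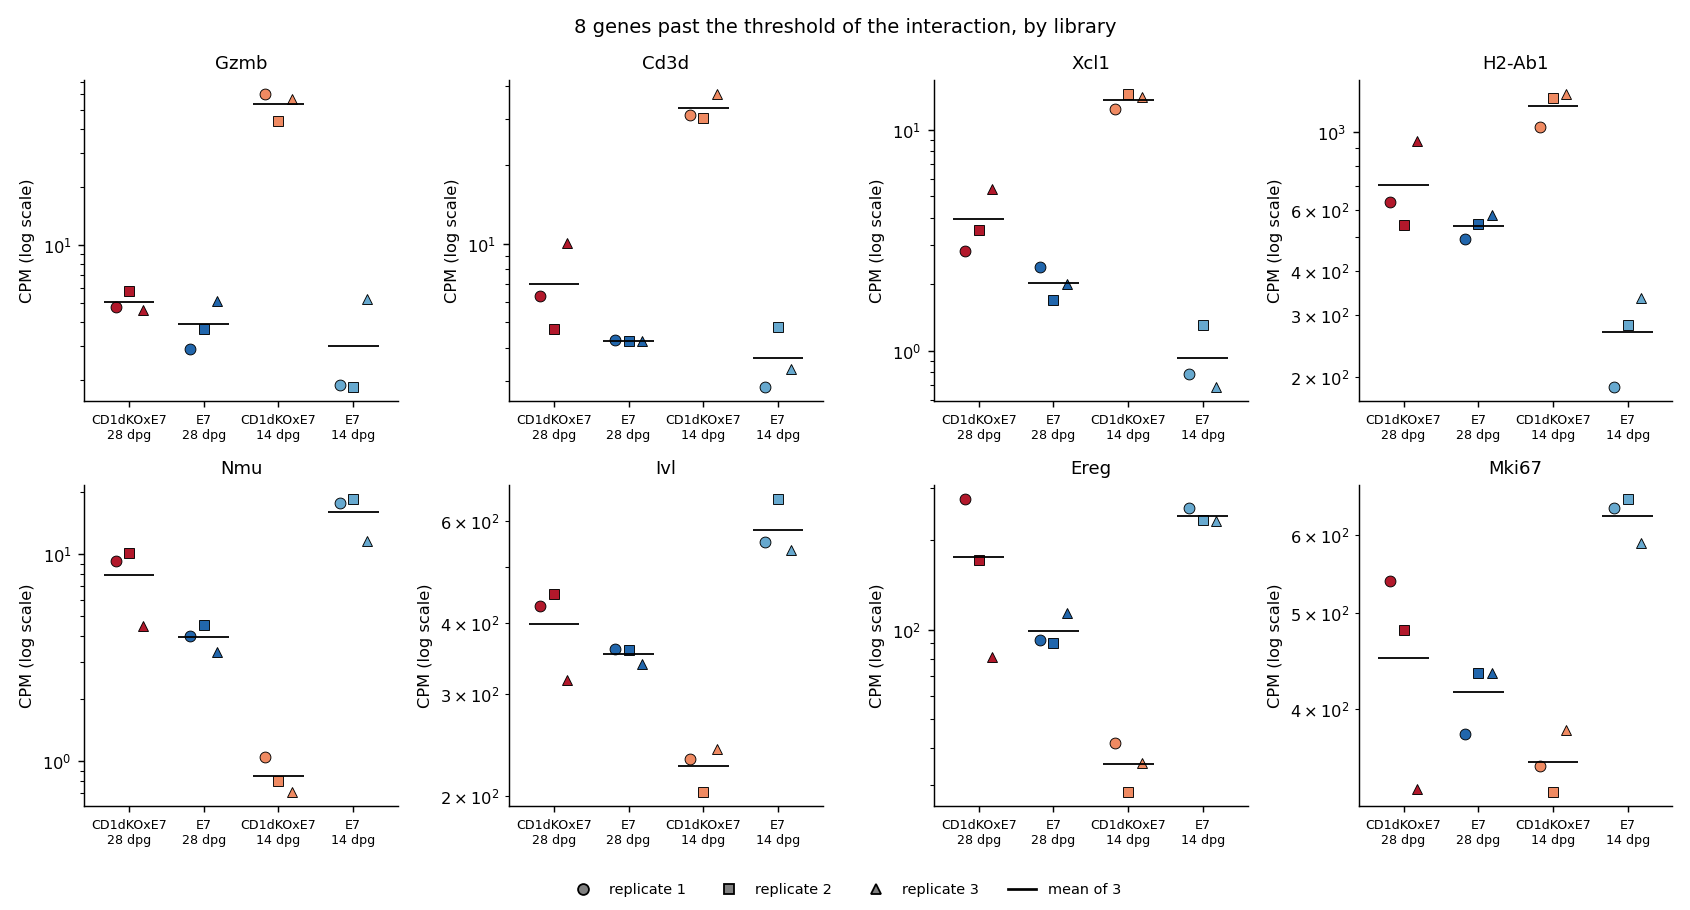
Levels in CPM on a log scale of 4 negative genes (Gzmb, Cd3d, Xcl1, H2-Ab1) and 4 positive genes (Nmu, Ivl, Ereg, Mki67) in each of the 12 libraries, with groups on the x axis, symbols for replicates and bars for the mean of 3. The 2 donors are far apart at 14 dpg and close or overlapping at 28 dpg, where replicate 3 of CD1dKOxE7 is the highest of its group for H2-Ab1 and the lowest for Mki67.

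Cell cycle genes were also on the positive side, with smaller values. Of 44 DNA replication and E2F target genes 16 were positive and 0 negative, with a median of 0.66, and 32 were lower in CD1dKOxE7 grafts at 14 dpg. Of 30 mitosis genes 9 were positive and 0 negative, with a median of 0.60, and 17 were lower in CD1dKOxE7 grafts at 14 dpg. The share of all genes tested that were lower at 14 dpg was 12.4%. The counts of positive genes were 38 of 44 and 21 of 30 without replicate 3 of CD1dKOxE7 at 28 dpg. The positive share of all genes tested was 4.14% with all libraries and 9.38% without that library. Gins1, a subunit of the replication helicase, had 19.6, 21.5 and 16.0 CPM in CD1dKOxE7 grafts and 13.2, 14.3 and 14.7 CPM in E7 grafts at 28 dpg. At 14 dpg Gins1 had 13.2, 14.1 and 11.8 CPM in CD1dKOxE7 grafts and 19.9, 20.1 and 18.1 CPM in E7 grafts. CD1dKOxE7 grafts were higher in every library at 28 dpg and lower in every library at 14 dpg, and the interaction was 1.00 ± 0.18 (adjusted p 0.0104). The difference of Gins1 at 28 dpg did not pass by itself. Ccne2, a cyclin that starts S phase, had 24.5, 33.2 and 11.6 CPM in CD1dKOxE7 grafts and 16.7, 19.9 and 19.2 CPM in E7 grafts at 28 dpg. At 14 dpg Ccne2 had 8.26, 8.50 and 7.83 CPM in CD1dKOxE7 grafts and 24.3, 30.5 and 29.6 CPM in E7 grafts, with an interaction of 2.09 (adjusted p 0.0151). The primase subunit Prim1 was positive at 1.27 and the flap endonuclease Fen1 at 0.78. Mki67, the proliferation marker, had 538, 480 and 332 CPM in CD1dKOxE7 grafts and 377, 435 and 434 CPM in E7 grafts at 28 dpg. At 14 dpg Mki67 had 350, 329 and 381 CPM in CD1dKOxE7 grafts and 640, 652 and 589 CPM in E7 grafts. Its interaction of 0.94 ± 0.21 (adjusted p 0.0237) passed in 5 of the 12 fits that leave out 1 library. The E7 transgene, whose protein drives the same genes, had the order of these lists, with values given above. Its part in these counts was not tested.

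Of 19 immediate early and heat shock genes, which respond to growth signals and to handling of tissue, 5 were positive and 0 negative, with a median of 0.81. Arc had 211, 192 and 69.8 CPM in CD1dKOxE7 grafts and 91.5, 105 and 96.2 CPM in E7 grafts at 28 dpg. At 14 dpg Arc had 44.3, 20.7 and 27.3 CPM in CD1dKOxE7 grafts and 151, 133 and 185 CPM in E7 grafts, and its interaction was 3.03 ± 0.54 (adjusted p 0.0131). Jun, a subunit of AP-1, and Ier3 were positive at 0.90 and 1.06, with CD1dKOxE7 grafts above E7 grafts at 28 dpg and below them at 14 dpg in every library. For both genes the difference at 28 dpg did not pass by itself. Hk2, a hexokinase that starts glycolysis, was positive at 1.29, while Aldoa, a later glycolytic enzyme, was negative at -0.54. Of 20 endothelial and adhesion genes 2 were negative, the adhesion molecules Icam1 at -1.57 and Vcam1 at -1.38, against 4.19% of all genes tested. Without replicate 3 of CD1dKOxE7 at 28 dpg 8 were negative, against 12.3% of all genes.

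15 of the 41 lists had no member past the threshold, among them mast cell, B and plasma cell, hair keratin, sebaceous gland, melanocyte, dermal matrix, metalloproteinase, adipocyte, skeletal muscle, cartilage, Schwann cell, erythroid and oxidative phosphorylation genes. The skeletal muscle list had the median farthest from 0 of these, -1.83 over 24 genes, and its summed level was 1034 to 1777 CPM in CD1dKOxE7 grafts and 2220 to 2653 CPM in E7 grafts at 28 dpg, against 1201 to 3834 CPM in CD1dKOxE7 grafts and 492 to 2000 CPM in E7 grafts at 14 dpg. Its sum varied widely within both groups of 14 dpg. Although none of its genes passed, 23 of its 24 interaction values were below 0, so the lack of a call does not show that the list was unchanged. Without replicate 3 of CD1dKOxE7 at 28 dpg 5 of its genes were negative. In that fit 12.3% of all genes tested were negative and 9.38% positive. Of the lists, 10 of 36 interferon response, 5 of 17 metalloproteinase, 2 of 12 B and plasma cell, 2 of 26 dermal matrix, 2 of 23 oxidative phosphorylation and 1 of 14 melanocyte genes were negative. The dermal matrix, oxidative phosphorylation and melanocyte lists did not exceed the negative share of all genes. In the same fit 7 of 23 sebaceous gland genes were positive. Of 16 Schwann cell genes 1 was positive and 3 were negative, and the other 6 of the 15 lists had no call. With all libraries 33 of 34 hair keratin values were above 0, while Schwann cell values were even, with 8 above and 8 below 0. Pvalb, a calcium-binding protein of fast muscle, had the smallest p of the skeletal muscle list, with an interaction of -3.20 and an adjusted p of 0.0581. Of 13 Skint and CD1 family genes 1 was positive, Skint11, which had 20.1, 22.2 and 13.8 CPM in CD1dKOxE7 grafts and 19.7, 21.4 and 22.8 CPM in E7 grafts on day 28 and 5.41, 5.31 and 7.12 CPM in CD1dKOxE7 grafts and 12.6, 16.1 and 14.9 CPM in E7 grafts at 14 dpg. Of that list 3 genes were positive and 2 negative without replicate 3 of CD1dKOxE7 at 28 dpg.

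Several genes named above lost the call when single libraries were left out. Of the 12 fits that leave out 1 library, the interaction passed in 2 for Irf8, Lamb3 and Vcam1, in 3 for Sirpa, Batf3 and C1s1, in 4 for Slurp2 and Aldoa, in 5 for Skint11, in 7 for Il2rb, in 8 for Sprr1b, in 10 for Ccl11 and in 11 for Ly6c2.

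Among the 5 genes that differed between donors at 28 dpg, 4 had the same difference on both days. 1810037I17Rik (Entrez 67704, chr3:122924397-122926194) had 27.4, 30.0 and 23.1 CPM in CD1dKOxE7 grafts and 4.27, 3.55 and 3.51 CPM in E7 grafts at 28 dpg. At 14 dpg 1810037I17Rik had 22.5, 26.0 and 25.6 CPM in CD1dKOxE7 grafts and 3.95, 2.83 and 3.33 CPM in E7 grafts. The log2 difference was 2.82 at 28 dpg and 2.88 at 14 dpg, and the interaction was -0.06 ± 0.22 (adjusted p 0.895). Fgfbp3, a carrier of fibroblast growth factors, was lower in CD1dKOxE7 grafts, with log2 differences of -1.47 at 28 dpg and -1.44 at 14 dpg. The near-identical genes Tmem254a and Tmem254c were lower too, with -0.91 and -0.97 at 28 dpg and -0.80 and -0.83 at 14 dpg. Replicate 3 of CD1dKOxE7 at 28 dpg lay with its group in these 4 genes. They were picked because they passed at 28 dpg with that library included, so its place was favoured by the choice. Sprr2h, an envelope protein of the small proline-rich family, differed between the days. It had 128, 135 and 124 CPM in CD1dKOxE7 grafts and 52.9, 55.5 and 45.9 CPM in E7 grafts on day 28, and 207, 184 and 220 CPM in CD1dKOxE7 grafts and 311, 242 and 211 CPM in E7 grafts at 14 dpg. Its difference was 1.33 at 28 dpg (adjusted p 0.00488) and -0.32 at 14 dpg (adjusted p 0.0895), with an interaction of 1.65 ± 0.19 (adjusted p 0.00371). Reads may be shared among Sprr2 genes, and Sprr2a1, Sprr2d and Sprr2e had interactions of -0.68 to -0.40 that did not pass.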

How the data were processed

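Gene expression was measured in whole grafts by RNA sequencing. The values are the authors' deposited raw counts per Entrez gene, 1 table per library; per the submitters' processing notes, graft reads passed FastQC and Trimmomatic and the genome build was mm10. Not given in the sources used here are the aligner, the counting program and strand use. Counts of overlapping antisense genes and of near-identical families are therefore uncertain. Per the labels' protocols, RNA was extracted with Trizol and RNeasy columns and libraries were made with the TruSeq RNA v2 kit. Of 27180 rows, 25275 matched RefSeq symbols, and the 1904 unmatched gene rows held 0.918 to 1.56% of counts.

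Counts of the 12 libraries were fitted with edgeR 4.0.16 (R 4.3.3, limma 3.58.1): filterByExpr by group (minimum count 10, total 15), TMM, robust quasi-likelihood F tests on group means, and Benjamini-Hochberg adjustment over 15788 genes; a gene was called at an adjusted p under 0.05. The SE is the absolute log2 value over the square root of F. CPM use TMM factors of all 18 graft libraries. The 12 pairs of libraries within a group were compared, 0 were identical, and each differed by more than counting error (chi-square per degree of freedom 3.61 to 29.4). Intervals and floors cover counting error only. Alternatives were RLE and upper quartile scaling, no filter, a filter of 1 CPM in 3 libraries, DESeq2 1.42.0, all 18 graft libraries, a replicate block, a log2 limit of 1 and leaving out each library; the scripts were tested on simulated data. Summaries and plots used pandas 2.3.3, numpy 2.4.6 and matplotlib 3.10.9 under Python 3.11.15.

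The groups compared, the gene lists and the tests were chosen with earlier results of these data known. Genes were named by a rule: Cd1d1, Cd1d2 and E7; the 8 largest interactions and the 4 smallest p-values in each direction among called genes with at least 1 CPM in a group and an established symbol; and, from each list, the 3 called members with the smallest adjusted p, or the 1 with the smallest p where none was called. Other list members, the marker genes and the 5 genes called at 28 dpg were named after their values were seen. Ear libraries were not used.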

Additional observations from a re-analysis of the deposited data

Results flagged for a closer look

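The interaction tests whether the donor difference itself differed between 28 and 14 dpg, and 1314 genes passed by edgeR's quasi-likelihood test with Benjamini-Hochberg adjustment. The named genes among them are listed with their interaction on the log2 scale (CD1dKOxE7 minus E7 at 28 dpg, minus the same at 14 dpg), and no cause was tested.

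Positive genes from several lists and from none were Spink7 5.96, Krt2 5.74, Nmu 5.18, Ereg 3.61, Rgn 3.19, Aqp5 3.16, Kcnj12 3.11, Slurp2 3.06, Sprr2h 1.65, Sprr1b 1.73, Ivl 1.54, Cdsn 1.40, Crct1 1.25, Skint11 1.13, Arc 3.03, Ier3 1.06, Jun 0.90, Hk2 1.29, Mfap3l 1.52, Il20rb 0.82 and Trp53inp1 0.52. Positive among the named members of the DNA replication and mitosis lists were Gins1 1.00, Prim1 1.27, Fen1 0.78, Cenpe 0.87, Ndc80 1.09 and Mki67 0.94.

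Negative genes included Ccl1 -6.88, Trbv19 -4.11, Gzmb -3.75, Prf1 -3.24, Trat1 -3.09, Cd2 -2.16, Cd3d -2.42, Icos -1.57, Ctsw -2.57, Gzmc -2.48, Xcl1 -2.90, Cd160 -2.72, Il2rb -2.33, Pdcd1lg2 -2.60, Havcr2 -1.36 and Lag3 -2.15. Negative among the named members of the MHC lists were H2-K1 -1.22, H2-D1 -0.94, B2m -1.07, H2-Ab1 -1.76, H2-Aa -1.56 and Ifi30 -1.09. Further negative genes were Lcn2 -3.99, Saa3 -3.50, Ly6i -3.35, Cd14 -1.88, Ly6c2 -1.74, Ccr2 -1.52, Il1b -2.18, Csf3r -1.46, Ccl11 -1.90, Crlf2 -1.20, Sirpa -1.21, Batf3 -1.99, Irf8 -1.22, Cxcl16 -1.45, Cfb -1.73, C2 -1.002 and C1s1 -1.18. Other negative genes were Cyp4f18 -2.47, Ifitm1 -2.57, B4galnt1 -0.88, Icam1 -1.57, Vcam1 -1.38, Lamb3 -0.90, Nfatc1 -0.52, Fas -1.04, Aldoa -0.54 and Hoxd8 -1.31. Besides the genes with such counts given above, some flagged genes passed in few of the 12 fits that leave out 1 library. Hoxd8 and Il20rb passed in 1, Nfatc1, Fas and Trp53inp1 in 2, and Crlf2 in 3. Csf3r passed in 5 and Ndc80 in 9.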

How the results depend on the processing

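The count of the interaction (1314 genes) was 1271 with RLE, 1292 with upper quartile scaling, 1136 without a filter, 1305 with the CPM filter, 1917 with DESeq2, 2080 with all 18 graft libraries and 641 with an absolute log2 value of at least 1. Leaving out 1 library gave 442 to 3472 genes. For replicates 1, 2 and 3 in turn it gave 444, 594 and 1324 without E7 grafts at 14 dpg and 481, 552 and 627 at 28 dpg. Without CD1dKOxE7 replicates 1, 2 and 3 it gave 1110, 534 and 528 at 14 dpg and 451, 442 and 3472 at 28 dpg. Each of these fits has 1 library fewer, and the cause of the differences between them was not tested. The count at 28 dpg (5 genes) was 13 without a filter, 145 with DESeq2, 34 with all 18 libraries, 3 with the log2 limit and 3 to 127 with 1 library left out; it was 3 without E7 replicate 1 or 2 of that day and 127 without CD1dKOxE7 replicate 3, and the cause was not tested. The count at 14 dpg (4141 genes) was 1418 with the log2 limit and 3004 to 4801 with 1 library left out. A pairing of the libraries by replicate number was not seen, and so few libraries cannot exclude one. The 18 same-numbered pairs correlated at -0.355 to 0.305, with a median of 0.036 against -0.011 for other pairs. Among the same-numbered pairs 4 were over 0.1, and 5 of 12 libraries correlated best with their own number. With the replicate block the counts were 1558 for the interaction, 6 at 28 dpg and 4114 at 14 dpg. Of 1781 alternative values of the 94 named genes, 1528 kept direction and call, 228 lost the call, 25 gained it and 0 changed sign. Of the 76 named genes called, 49 passed in all 12 fits that leave out 1 library. The median interaction of all genes lay between -0.0122 (no filter) and 8.38e-05 (as reported) over the scalings, filters, fits and tools. At 0.271 to 0.446 CPM for 3 counts, genes such as Ccl1, Trbv19 and Cd1d2 are limited by depth.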
